A study of Homo sapiens with 6 samples.

Results

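The core spliceosome is the set of small nuclear ribonucleoproteins (snRNPs) and partner proteins that cut introns out of pre-mRNA. Its genes were taken here by symbol, as those for the Sm and snRNP-specific proteins (SNRP), the SF3A and SF3B subunits, the PRPF and U2AF families, LSM1 to LSM8, and the genes SF1, EFTUD2, SNRNP200, CDC5L, PLRG1, DHX15, DHX16, DHX38, DDX23, SART1, BUD31 and SNW1. Of 19493 genes with a value in every library, 57 were members, after 1 pseudogene (SNRPEP3) was left out. RNA was sequenced from HaCaT cells, an immortalised line of human skin keratinocytes, in 6 libraries. All 3 groups expressed the photolyase of the marsupial Potorous tridactylus, an enzyme that splits the cyclobutane pyrimidine dimers formed by ultraviolet light once visible light drives it. The first group (UVC with active photolyase) received 15 J/m2 of UVC at 254 nm and 2 h of white light, the second (UVC) received the same dose with the photolyase left inactive, and the third (control) was untreated with inactive photolyase, with 2 libraries in each. Irradiated cells were harvested at 6 h. White light was given to 1 group only, so photolyase activity and the light itself cannot be told apart. Nothing in the labels says that the replicates were separate cultures, so the p-values measure how far these libraries scatter, and that scatter may be technical.

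Splicing begins when the U1 snRNP pairs with the upstream splice site and SF1 and the U2AF heterodimer bind the branch point and the downstream splice site. The U2 snRNP, with its SF3A and SF3B parts, then takes over the branch point, and the U4/U6.U5 tri-snRNP joins. Helicases and the PRPF19 complex rearrange this assembly into its catalytic form. In the U1, U2, U4 and U5 particles a ring of 7 Sm proteins holds the small nuclear RNA, and in U6 a ring of LSM proteins takes that place.

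Libraries held 57669389 to 70005705 counted reads, and tested members had between 129 and 23114 reads in a library. Replicates correlated at r = 0.997 to 0.998 over log2 CPM of 11926 genes, against 0.899 to 0.978 between groups. The keratinocyte markers KRT5, KRT14, KRT15, TP63, ITGA6, ITGB4, DSG3, PERP and SFN were all expressed, at 16.8 cRPKM or more in every library (cRPKM is the deposited corrected RPKM, which adjusts reads for gene length and library size). Of the markers of other cell types, 1 of 7 for melanocytes, 2 of 8 for fibroblasts and 4 of 7 for immune cells passed the filter. PTPRC, which marks leukocytes, reached at most 0.04 cRPKM and TYR, the melanocyte tyrosinase, was 0 everywhere, while COL1A1, a fibroblast collagen, ran from 4.69 to 6.84 and MITF, a melanocyte factor, from 0.58 to 1.27. The summed fibroblast markers were 9.31 to 9.74 cRPKM with active photolyase, 10.1 to 10.4 after UVC and 6.60 to 7.60 in control, and the summed melanocyte markers 1.29 to 1.42, 1.76 to 2.06 and 1.94 to 1.99 in those groups. The summed level of 7 immune markers was 180 to 190.3 cRPKM with active photolyase, 214 to 216 after UVC and 117 to 129 in control. CD74 and CD68 made up most of it, and the part of these markers in the results was not tested. In bulk RNA, fewer cells of a kind and less RNA per cell cannot be told apart.

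Levels are given as scaled cRPKM, the deposited cRPKM divided by the library's factor from the trimmed mean of M values (TMM). TMM sets the bulk of genes to no change, and that choice mattered here. When libraries were scaled by their total counts instead, the median log2 change of all genes moved to 0.42 for UVC against control, to -0.34 for active photolyase against UVC and to 0.12 for active photolyase against control. Fold changes and counts below are from TMM unless library totals are named. Where the core members of a role are counted, both scalings are given, but not every role was counted in every comparison.

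Of the 57 members, 56 passed the filter of 1 cRPKM in at least 2 libraries. SNRPN, which encodes the Sm protein N, a near-identical relative of the Sm protein B, was listed at 0 reads in all 6 libraries, and a count of 0 allows up to 3 reads per library (counting error only). The median member stood at 28.4 scaled cRPKM with active photolyase, 24.4 after UVC and 32.1 in control. SNRPB, which encodes the Sm protein B, was the most abundant in every group. It had 268 and 281 scaled cRPKM with active photolyase, 203 and 199.7 after UVC, and 296 and 288 in control. PRPF40B, a relative of a yeast U1 snRNP protein, had the lowest level in control, at 1.34 and 1.87 scaled cRPKM.

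In the first comparison, UVC against control, the question was how these transcripts changed when the damage was left to the cell. Falls outnumbered rises: by edgeR's quasi-likelihood test at an adjusted p under 0.05, 12 of 56 members were higher (42.5% of all 11926 tested genes were) and 34 lower (43.1% of all), while 10 were not called (85.6% of all tested genes were called in either direction). With library totals the balance turned to 29 higher and 18 lower, or 61.7% higher among called members in place of 26.1%, against 66.7% in place of 49.7% for all genes. The members' median log2 change was -0.23 with TMM, where the median of all genes was 0.00, and 0.19 against 0.42 with library totals. Members thus sat about 0.24 below the median gene, and 17 of 56 lay above it. A scaling shifts all genes nearly alike, so both figures had to be nearly the same with library totals. All 12 rises were also called higher with library totals, and 18 of the 34 falls were also called lower. Library totals raised the values of this comparison, so the rises could hardly lose their calls, and only the falls were put at risk. EFTUD2, PRPF18, PRPF39, PRPF8, SF3A1, SF3B4 and SNRPG were called lower with TMM and higher with library totals.

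**Figure D1:**
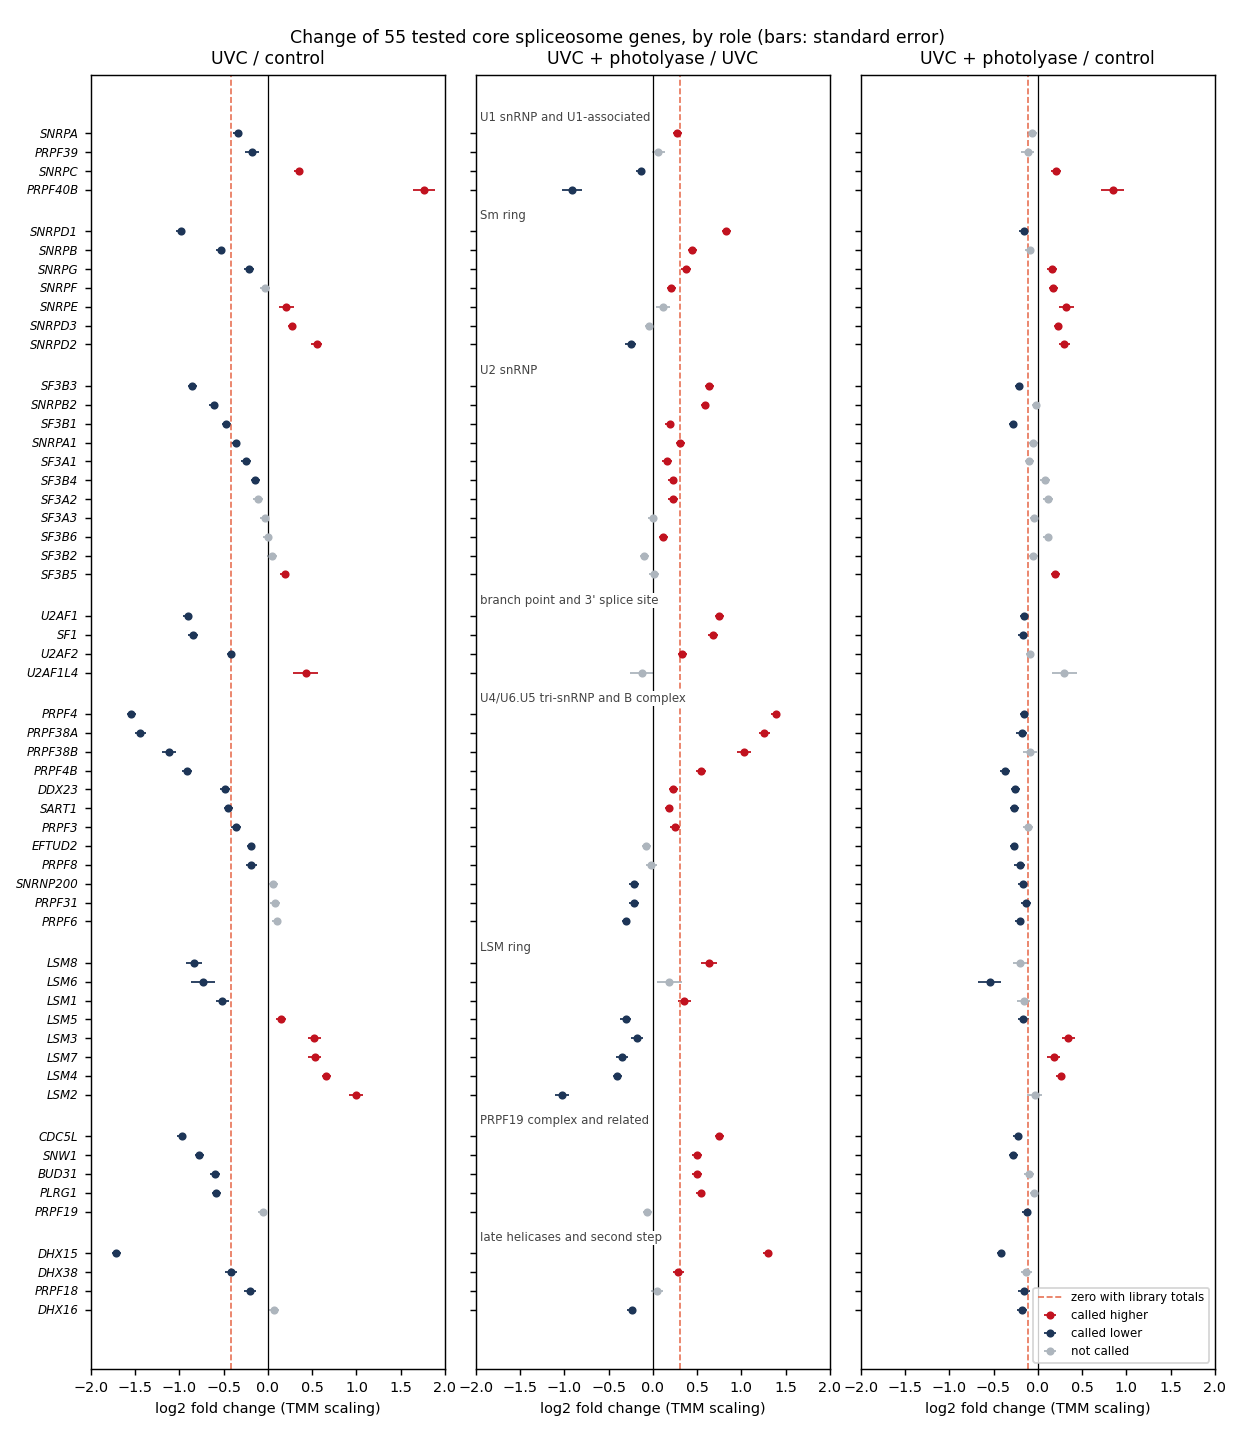
Log2 fold change (x axis, TMM scaling) of 55 tested members, grouped by role, in the 3 comparisons. Points are edgeR estimates, bars are standard errors, and the dashed line marks where zero would lie with library totals. After UVC, DHX15 lies farthest left (-1.71) and PRPF40B farthest right (1.76), and against control the values with active photolyase run from -0.54 to 0.85.

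The deepest fall was in DHX15 (ENSG00000109606), the helicase that takes the spliceosome apart after the reaction. Its scaled cRPKM was 19.98 and 20.8 after UVC, against 66.6 and 67.3 in control, 3.28-fold lower (log2 fold change -1.71 ± 0.05 SE, adjusted p = 1.25e-12 by edgeR). Both UVC libraries lay far below both controls, and with library totals the value was -1.29. DHX16, which acts at activation, was not called (0.07 ± 0.05, adjusted p = 0.272 by edgeR) and had a call of 0.48 with library totals. DHX38, a helicase of the second step, fell by TMM alone (-0.42, against 0.00 and no call with library totals).

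In the tri-snRNP and the B complex that it forms, 9 of 12 members were lower and none higher with TMM, and 4 were lower and 5 higher with library totals. Among all 11926 tested genes, 43.1% were lower and 42.5% higher with TMM, and 3542 were lower and 7095 higher with library totals. PRPF4 (ENSG00000136875), a U4/U6 protein, had 15.2 and 15.1 scaled cRPKM after UVC, against 43.4 and 45.4 in control (-1.55 ± 0.05, adjusted p = 3.32e-12 by edgeR, and -1.13 with library totals). PRPF38A, needed for activation of the complex, had 6.55 and 6.86, against 17.6 and 18.96 in control (-1.44 ± 0.06, and -1.03 with library totals). Its relative PRPF38B (-1.12 ± 0.08) and the kinase gene PRPF4B (-0.91 ± 0.06) also fell under both scalings. The other members of this class changed less than these. PRPF31 (0.07 ± 0.06) and PRPF6 (0.10 ± 0.05) were not called with TMM and were called higher with library totals (0.49 and 0.52). PRPF3 (-0.36 ± 0.06), SART1 (-0.45 ± 0.05) and DDX23 (-0.49 ± 0.05) fell by TMM and were not called with library totals. The large U5 proteins that form the catalytic frame also changed little with TMM. PRPF8, the scaffold around the active site, had 34.8 and 33.2 scaled cRPKM after UVC, against 36.2 and 41.4 in control (-0.19 ± 0.06, and 0.23 with library totals). Its call was lost without control replicate 2 or UVC replicate 2, where estimates over the 4 left-out libraries ran from -0.28 to -0.09. EFTUD2, the U5 GTPase, was at -0.19 ± 0.05 (0.22 with library totals), and SNRNP200, the helicase that unwinds U4 from U6, was not called with TMM at 0.05 ± 0.06 (adjusted p = 0.396 by edgeR) and was called higher with library totals (0.47).

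Genes for recognition of the branch point and the downstream splice site were lower in 3 of 4 cases with TMM and in 2 with library totals, with 1 higher under each. For all 11926 tested genes, 43.1% were lower and 42.5% higher with TMM, and 3542 and 7095 with library totals. U2AF1 (ENSG00000160201), the small U2AF subunit that reads the terminal AG of the intron, had 58.5 and 57.7 scaled cRPKM after UVC, against 109 and 109.7 in control (-0.91 ± 0.05, adjusted p = 1.05e-09 by edgeR, and -0.49 with library totals). SF1, the branch point binding protein, had 72.6 and 68.3, against 124 and 129.6 in control (-0.84 ± 0.06, and -0.43 with library totals). U2AF2, the large subunit that binds the polypyrimidine tract, fell less by TMM (-0.42 ± 0.05) and was not called with library totals. U2AF1L4, a shorter relative of U2AF1 at 4.13 and 4.77 scaled cRPKM after UVC and 3.52 and 3.11 in control, rose (0.43 ± 0.14), a call lost without control replicate 2 or UVC replicate 2 (0.32 to 0.53 over the left-out libraries).

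U2 snRNP genes gave 1 rise and 6 falls among 11 with TMM, and 7 rises and 2 falls with library totals. All 11926 tested genes gave 42.5% rises and 43.1% falls with TMM, and 7095 rises and 3542 falls with library totals. SF3B3 (ENSG00000189091), a large scaffold subunit of SF3B, had 17.2 and 16.6 scaled cRPKM after UVC, against 30.3 and 30.9 in control (-0.85 ± 0.05, and -0.44 with library totals). SNRPB2, the U2 protein B'', also fell under both scalings (-0.61 ± 0.05, and -0.20). SF3B1, the subunit that clasps the branch point and is often mutated in myelodysplasia, had 43.2 and 43.7, against 60.04 and 60.5 in control (-0.47 ± 0.05), but the call was lost with library totals (-0.05). SF3B5, a small SF3B subunit, rose under both (0.19 ± 0.05, and 0.60). SF3B2, SF3B6, SF3A2 and SF3A3 were not called with TMM, at -0.11 to 0.05, and were called higher with library totals, at 0.31 to 0.46.

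Of the 12 rises, 8 were in genes for the small ring proteins. In the LSM ring 5 of 8 members were higher and 3 lower, and with library totals 5 and 2. Of all 11926 tested genes, 42.5% were higher and 43.1% lower with TMM, and 7095 and 3542 were with library totals. LSM2 (ENSG00000204392) had 18.6 and 19.5 scaled cRPKM after UVC, against 10.1 and 9.12 in control (0.99 ± 0.08, adjusted p = 5.93e-08 by edgeR, and 1.41 with library totals). LSM4 had 71.1 and 71.4, against 46.1 and 44.3 in control (0.66 ± 0.05), and LSM7 (0.53 ± 0.07) and LSM3 (0.52 ± 0.07) rose as well. LSM5 rose least (0.15 ± 0.06), a call lost without control replicate 2, UVC replicate 1 or UVC replicate 2 (0.10 to 0.19). LSM8, which marks the nuclear ring that binds U6, fell under both scalings, with 6.37 and 7.75 scaled cRPKM after UVC, against 12.6 in both controls (-0.83 ± 0.09, and -0.42). LSM1, which takes its place in the cytoplasmic ring of mRNA decay, fell by TMM (-0.52 ± 0.07) and was not called with library totals (-0.10). LSM6, shared by both rings, fell under both (-0.73 ± 0.14, and -0.32).

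In the Sm ring 3 of 7 tested members were higher and 3 lower, a share near that of all tested genes (42.5% and 43.1%). With library totals 5 were higher and 2 lower, against 7095 and 3542 of all 11926. SNRPD2 (ENSG00000125743) had 150.3 and 147 scaled cRPKM after UVC, against 109 and 94.1 in control (0.55 ± 0.06, and 0.97 with library totals). SNRPD1, whose protein pairs with that of SNRPD2, moved the other way, with 28.5 and 30.6, against 59.4 and 57.9 in control (-0.99 ± 0.05, adjusted p = 5.21e-10 by edgeR, and -0.57 with library totals). SNRPB fell under both (-0.54 ± 0.05, and -0.12), while SNRPD3, whose protein is its partner, rose (0.27 ± 0.05, and 0.69). SNRPE rose by 0.21 ± 0.08, a call lost without control replicate 2, UVC replicate 1 or UVC replicate 2 (0.12 to 0.30).

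Among U1 genes, PRPF40B (ENSG00000110844) had the largest rise of any member: 5.5 and 5.38 scaled cRPKM after UVC, against 1.34 and 1.87 in control, 3.39-fold higher (1.76 ± 0.12, adjusted p = 1.00e-08 by edgeR, and 2.18 with library totals). SNRPC, the U1 protein that steadies pairing with the upstream splice site, rose (0.35 ± 0.05, and 0.76). SNRPA, the U1 protein A, fell by TMM (-0.34 ± 0.05) with no call under library totals (0.07). In the PRPF19 group, CDC5L (-0.97 ± 0.05), SNW1 (-0.77 ± 0.05), BUD31 (-0.60 ± 0.05) and PLRG1 (-0.58 ± 0.05), which encode structural parts of the activated spliceosome, fell under both scalings. PRPF19 itself, a ubiquitin ligase, was not called with TMM (-0.06 ± 0.05, adjusted p = 0.268 by edgeR) and was called higher with library totals (0.36). Leaving out 1 library also removed the calls of SF3B4 (without control replicate 1 or UVC replicate 2, -0.19 to -0.09), PRPF18 (without UVC replicate 1, -0.25 to -0.16) and PRPF39 (without control replicate 2 or UVC replicate 1, -0.27 to -0.09).

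**Figure D2:**
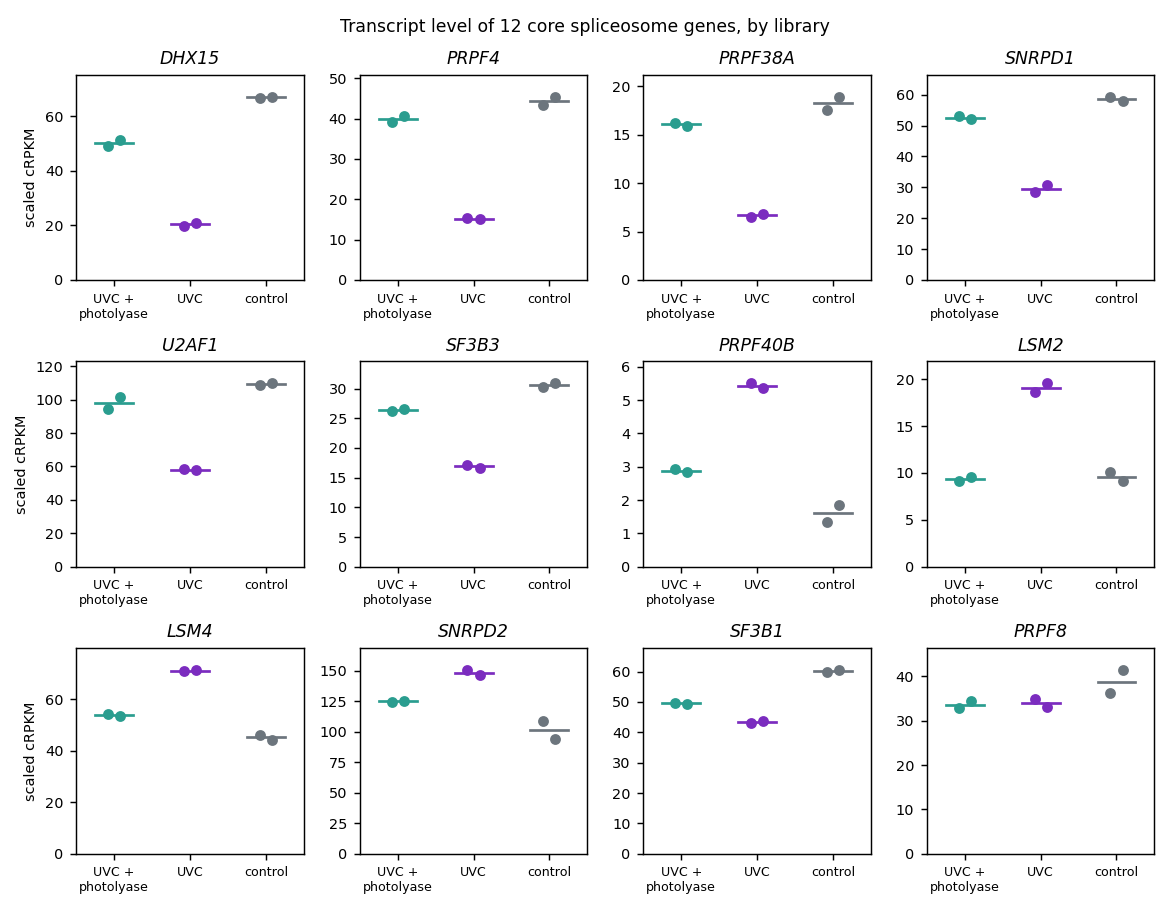
Scaled cRPKM (y axis, from 0) of 12 members in each library: 2 points per group, with the group mean as a line. In the UVC libraries DHX15, PRPF4, PRPF38A, SNRPD1, U2AF1 and SF3B3 lie below the other groups, and PRPF40B, LSM2, LSM4 and SNRPD2 lie above them.

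Pairs of partner proteins were also read against each other. The ratio of their deposited cRPKM within a library does not depend on scaling, and 6 pairs were taken for known binding, after the values had been seen. SNRPD1 over SNRPD2 was 0.427 and 0.416 with active photolyase, 0.1898 and 0.209 after UVC, and 0.544 and 0.615 in control. The UVC ratios were the lowest and the control ratios the highest. PRPF4 over its partner PRPF3 was 2.05 and 2.11 with active photolyase, 0.930 and 0.959 after UVC, and 2.22 and 2.08 in control, so that only the UVC libraries stood apart. U2AF1 over U2AF2 was 1.99 and 2.14 with active photolyase, 1.54 and 1.55 after UVC, and 2.11 and 2.22 in control. SF3B3 over SF3B5 averaged 0.347 with active photolyase, 0.225 after UVC and 0.463 in control, and SNRPB over SNRPD3 averaged 4.32, 3.07 and 5.38 in those groups. SNRPA1 over SNRPB2, the pair of U2-specific proteins, averaged 1.34 with active photolyase, 1.63 after UVC and 1.37 in control. With 2 libraries against 2, the smallest two-sided p that an exact permutation test can give is 0.333, so the ratios are given as a description.

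UVC with active photolyase was then set against UVC, to ask which levels differed once dimers could be split. Both comparisons use the same UVC libraries, so their values are not independent. With TMM, 32 of 56 members were higher (39.2% of all tested genes were) and 12 lower (39.9% of all), with 12 not called (79.1% of all tested genes were called in either direction). Library totals gave 16 higher and 27 lower, or 37.2% higher among called members in place of 72.7%, against 32.3% in place of 49.6% for all genes. The members' median was 0.20, against -0.04 for all genes, and 39 of 56 lay above the median gene, a count that a change of scaling could hardly alter. All 12 falls were called lower with library totals too, and 16 of the 32 rises were called higher, while SART1, SF3A1, SF3B1 and SF3B6 turned from higher to lower. Library totals lowered the values of this comparison, so here the falls could hardly lose their calls.

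**Figure D3:**
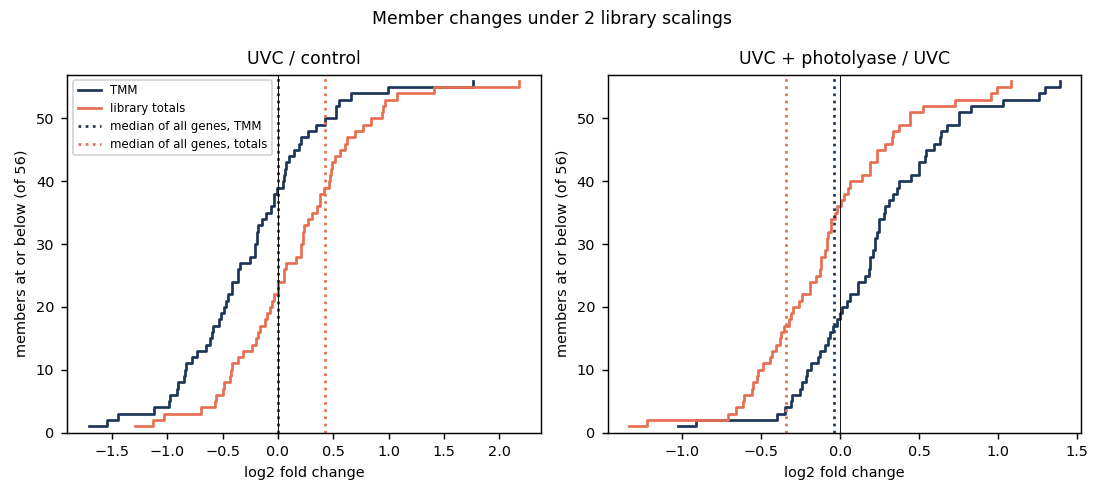
Number of members (y axis, of 56) at or below a given log2 fold change (x axis) for UVC against control and active photolyase against UVC, with TMM factors and with library totals. Dotted lines are the medians of all tested genes, at 0.00 and 0.42 in the first comparison and at -0.04 and -0.34 in the second, and the curves of a pair differ by a sideways shift.

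PRPF4 had the largest rise, with 39.05 and 40.7 scaled cRPKM with active photolyase, against 15.2 and 15.1 after UVC (1.39 ± 0.05, adjusted p = 1.62e-11 by edgeR, and 1.08 with library totals). DHX15 had 49.2 and 51.3 with active photolyase, against 19.98 and 20.8 after UVC (1.30 ± 0.05, and 0.99). PRPF38A (1.26 ± 0.06), PRPF38B (1.03 ± 0.08) and SNRPD1 (0.83 ± 0.05) also rose under both scalings, as did U2AF1 (0.75 ± 0.05), CDC5L (0.75 ± 0.05), SF1 (0.68 ± 0.06), SF3B3 (0.64 ± 0.05), LSM8 (0.63 ± 0.09) and SNRPB2 (0.59 ± 0.05). SNRPB rose by 0.45 ± 0.05 (0.14 with library totals). SNRPA (0.28 ± 0.05) and U2AF2 (0.33 ± 0.05) rose by TMM and were not called with library totals.

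LSM2 had the largest fall, with 9.11 and 9.61 scaled cRPKM with active photolyase, against 18.6 and 19.5 after UVC (-1.03 ± 0.08, adjusted p = 6.37e-08 by edgeR, and -1.33 with library totals). PRPF40B had 2.94 and 2.83, against 5.5 and 5.38 after UVC (-0.91 ± 0.11, and -1.22). LSM4 (-0.40 ± 0.05), LSM7 (-0.35 ± 0.07), LSM5 (-0.31 ± 0.06), PRPF6 (-0.30 ± 0.05) and SNRPD2 (-0.25 ± 0.06) fell under both. SNRNP200 fell by 0.22 on the log2 scale, and the call was lost without UVC replicate 1 (-0.27 to -0.16 over the left-out libraries). PRPF8 (-0.02 ± 0.06, adjusted p = 0.817 by edgeR), EFTUD2 (-0.07 ± 0.05, adjusted p = 0.175) and PRPF19 (-0.06 ± 0.05, adjusted p = 0.244) were not called with TMM and were called lower with library totals. Further calls rested on single libraries: SNRPF (0.13 to 0.26), SF3A2 (0.11 to 0.29) and SART1 (0.12 to 0.20) lost theirs without active-photolyase replicate 2, and SF3A1 (0.05 to 0.22) without that library or UVC replicate 2. SF3B6 (0.09 to 0.14) lost its call without any 1 of the 4 libraries, SNRPC (-0.19 to -0.12) without either UVC library or active-photolyase replicate 1, and LSM3 (-0.22 to -0.14) without UVC replicate 2 or either active-photolyase library.

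The remaining difference from untreated cells was read from UVC with active photolyase against control, which shares libraries with both comparisons above. Here 11 members were higher (33.0% of all tested genes were) and 24 lower (32.9% of all), and 21 were not called (65.8% of all tested genes were called in either direction). None changed by 2-fold or more. With library totals 15 were higher and 9 lower, or 62.5% higher among called members in place of 31.4%, against 64.8% in place of 50.1% for all genes, and no member was called in opposite directions. Single libraries weighed on the falls, and the members called lower differed with each library left out. Without control replicate 1, PRPF31, LSM5, PRPF19 and SNRPD1 lost their calls, while PRPF3, DHX38, PRPF38B and PRPF39 were newly called lower.

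DHX15 was lower under both scalings, at 49.2 and 51.3 scaled cRPKM with active photolyase, against 66.6 and 67.3 in control (-0.41 ± 0.05, adjusted p = 7.35e-06 by edgeR, and -0.30 with library totals). LSM6 (-0.54 ± 0.13), PRPF4B (-0.37 ± 0.05), SF3B1 (-0.28 ± 0.05), SNW1 (-0.28 ± 0.05), EFTUD2 (-0.27 ± 0.05), SART1 (-0.27 ± 0.05) and DDX23 (-0.25 ± 0.05) were lower under both as well. SF3B1 had 49.7 and 49.4, against 60.04 and 60.5 in control. All 11 rises were called with both scalings, but library totals raised the values of this comparison, so the rises could hardly lose their calls. PRPF40B rose most, with 2.94 and 2.83, against 1.34 and 1.87 in control (0.85 ± 0.13, adjusted p = 8.19e-05 by edgeR). LSM3 (0.34 ± 0.07), SNRPE (0.32 ± 0.08), SNRPD2 (0.30 ± 0.06) and LSM4 (0.26 ± 0.05) followed. LSM7 (0.18 ± 0.07, adjusted p = 0.0496 by edgeR) lost its call without control replicate 2 or either active-photolyase library (0.07 to 0.30). In the Sm ring 5 of 7 tested members were higher under both scalings (of 11926 genes, 33.0% with TMM, 5237 with library totals). SNRPD1 was lower with TMM alone (-0.16 ± 0.05). Of these, SNRPG (0.14 to 0.18) and SNRPD1 (-0.17 to -0.14) lost their calls without control replicate 1 or either active-photolyase library, and SNRPF (0.13 to 0.22) without active-photolyase replicate 2. In the tri-snRNP and B complex 10 of 12 were lower with TMM and none higher, with a median of -0.19 (32.9% of all tested genes were lower). With library totals 4 of 12 were lower, against 2840 of all 11926 tested genes. Among the 10 members lower with TMM, PRPF31 (-0.17 to -0.10) lost its call without any 1 of the 4 libraries. SNRNP200 (-0.22 to -0.11) lost its call without control replicate 2 or either active-photolyase library. PRPF4 (-0.19 to -0.12) and PRPF8 (-0.30 to -0.10) lost theirs without control replicate 2 or active-photolyase replicate 1, and PRPF38A (-0.24 to -0.13) without either second replicate. LSM2 was not called (-0.04 ± 0.09, adjusted p = 0.736 by edgeR), with 9.11 and 9.61 against 10.1 and 9.12 in control, nor were SNRPB (-0.09 ± 0.05, adjusted p = 0.134), SNRPB2 (-0.02 ± 0.05, adjusted p = 0.682), SNRPA (-0.07 ± 0.05, adjusted p = 0.285), U2AF2 (-0.08 ± 0.05, adjusted p = 0.135) or PRPF38B (-0.08 ± 0.08, adjusted p = 0.358).

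Members that span more DNA tended to have lower values in that comparison. Gene spans, taken by Ensembl identifier from GENCODE 29 on the GRCh38 build and not on the hg19 build of the files, ran from 0.693 kb for SF3B5 to 76.4 kb for PRPF40B, with a median of 17.9 kb. Across the 56 members, which are not independent and share the same libraries, Spearman's rho between span and log2 change was -0.48 for active photolyase against control (-0.44 across 11728 tested genes with a span), -0.19 for UVC against control (-0.24 across all) and 0.01 for active photolyase against UVC (0.02 across all). Effective length, by which counts were divided to give cRPKM, went with the change at least as closely among members. Its rho was -0.54 for active photolyase against control (-0.32 across all tested genes with a value). For UVC against control it was -0.32 (-0.27 across all), and for active photolyase against UVC 0.14 (0.14 across all). Which length mattered was not tested. The 14 shortest members by span had a median of 0.10 for active photolyase against control and the 14 longest a median of -0.22. The longest member, PRPF40B, was the strongest exception, and DHX15, at 67.1 kb, was among the lowest. LSM6, the lowest at -0.54, spans only 24.3 kb and was an exception on the other side.

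**Figure D4:**
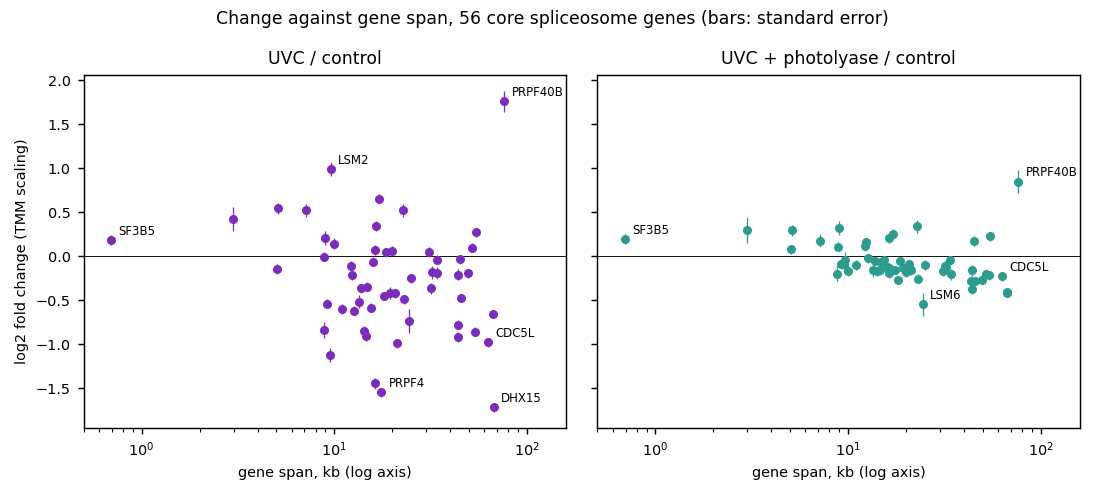
Log2 fold change (y axis, TMM scaling, bars are standard errors) of 56 members against gene span in kb (log axis), for UVC and for UVC with active photolyase, each against control. With active photolyase the points lie in a narrow band that slopes down (rho -0.48), apart from PRPF40B above it and LSM6 below it. After UVC alone they scatter more widely (rho -0.19).

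Promoter sequence was set beside the changes after UVC. RefSeq promoters on GRCh38.p14 (250 bases before to 50 after the start) matched 49 of 57 members. Motifs were searched on both strands. The GC box GGGCGG was in 31 of 49 (63.3%, against 70.2% of 9457 promoters of tested genes and 44.6% of all 27305) and CCAAT in 20 (40.8%, against 37.1% and 35.7%). The AP-1 motif TGANTCA was in 3 (6.12%, against 4.95% and 7.76%), the NRF1 motif in 2 (4.08%, against 2.23% and 1.36%), TATAAA in 1 (2.04%, against 6.08% and 11.95%), the YY1 motif in 1 (2.04%, against 2.14% and 0.916%) and the CRE motif TGACGTCA in 0 (against 3.31% and 1.98%). The ETS motif CCGGAAG was in 24 of 49 (49.0%, against 19.7% of promoters of tested genes and 10.7% of all). It was in 4 of the 12 members that rose under both scalings after UVC and in 5 of the 13 with a promoter that fell under both. A match of letters is not a bound site. The promoters of the largest rise and fall after UVC, and of the largest rise and fall among members with the ETS letters, are shown with all matches in capitals. PRPF40B lies at chr12:49623311-49623610 (plus strand), SNRPD2 at chr19:45692267-45692566 (minus), DHX15 at chr4:24584505-24584804 (minus) and LSM8 at chr7:118183914-118184213 (plus), each written along its own gene.
PRPF40B: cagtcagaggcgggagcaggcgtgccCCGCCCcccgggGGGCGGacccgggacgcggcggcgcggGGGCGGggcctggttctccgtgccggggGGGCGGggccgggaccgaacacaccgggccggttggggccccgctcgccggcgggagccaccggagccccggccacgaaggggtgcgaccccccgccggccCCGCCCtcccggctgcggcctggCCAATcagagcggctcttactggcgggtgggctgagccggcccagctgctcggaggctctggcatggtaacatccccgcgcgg
SNRPD2: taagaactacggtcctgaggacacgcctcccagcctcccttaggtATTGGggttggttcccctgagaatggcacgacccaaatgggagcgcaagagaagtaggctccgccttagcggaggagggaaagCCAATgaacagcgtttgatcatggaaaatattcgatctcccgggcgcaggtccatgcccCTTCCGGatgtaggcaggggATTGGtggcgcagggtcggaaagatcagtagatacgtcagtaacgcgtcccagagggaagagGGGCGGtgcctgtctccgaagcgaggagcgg
DHX15: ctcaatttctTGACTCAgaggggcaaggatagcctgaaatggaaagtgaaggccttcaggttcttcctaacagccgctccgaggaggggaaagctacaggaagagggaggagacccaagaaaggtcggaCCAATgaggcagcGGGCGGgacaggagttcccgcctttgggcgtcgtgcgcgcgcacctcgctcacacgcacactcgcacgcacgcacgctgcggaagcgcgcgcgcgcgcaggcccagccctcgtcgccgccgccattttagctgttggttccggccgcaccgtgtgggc
LSM8: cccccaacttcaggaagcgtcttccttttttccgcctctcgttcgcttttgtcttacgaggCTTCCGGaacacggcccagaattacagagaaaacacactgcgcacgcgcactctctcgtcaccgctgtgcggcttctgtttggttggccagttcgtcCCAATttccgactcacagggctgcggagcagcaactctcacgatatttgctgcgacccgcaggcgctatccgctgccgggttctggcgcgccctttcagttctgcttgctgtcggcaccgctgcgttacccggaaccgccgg
PRPF40B held 5 GC boxes and 1 CCAAT box in a window of 80.3% G and C. SNRPD2 held 3 CCAAT boxes, 1 GC box and 1 ETS match, read as CTTCCGG on the printed strand. DHX15 held 1 GC box, 1 CCAAT box and 1 TGANTCA match, and LSM8 held 1 CCAAT box and 1 ETS match.

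Other spliceosome genes outside the rule were read in the same way. Of 80 such genes (further snRNP proteins, later complexes, the exon junction complex, the minor spliceosome and snRNP assembly), all tested, 15 were higher and 53 lower after UVC against control with TMM, and 31 and 39 with library totals. Of all 11926 tested genes, 42.5% were higher and 43.1% lower with TMM, and 7095 and 3542 genes were with library totals. The median of the 80 genes was -0.51, against 0.00 for all tested genes. Falls included TGS1, which caps small nuclear RNAs (2.33 ± 0.117 scaled cRPKM after UVC, against 11.3 ± 0.212 in control, SD, n = 2 each; -2.27 ± 0.07) and GEMIN5, which delivers small nuclear RNA to the SMN complex (-1.87 ± 0.06), each lower under both scalings. SNUPN, which carries snRNPs into the nucleus, rose (12.7 ± 0.861 after UVC, against 6.25 ± 0.396 in control; 1.02 ± 0.08), as did ZMAT5 of the minor spliceosome (0.67 ± 0.10) and the prolyl isomerase gene CWC27 (0.59 ± 0.08), again under both. With TMM, the exon junction complex was lower in 4 of 4 tested genes (median -0.39). With the same scaling, snRNP assembly was lower in 10 of 14, with 3 higher (median -0.64). These classes were not counted with library totals, which put the median of all genes at 0.42. With active photolyase against UVC, 50 of the 80 were higher (39.2% of all tested genes were) and 16 lower (39.9% of all). Library totals gave 37 and 31, against 3318 and 6954 of all tested genes. The median with TMM was 0.32, against -0.04 for all. TGS1 (1.72 ± 0.07) and GEMIN5 (1.45 ± 0.06) were among the rises, and SNUPN (-0.97 ± 0.08), CWC27 (-0.66 ± 0.08) and SNRNP25 of the minor spliceosome (-0.50 ± 0.09) led the falls. Against control, 13 of the 80 were higher (33.0% of all tested genes were) and 35 lower (32.9% of all) with active photolyase. Library totals gave 25 and 21, against 5237 and 2840 of all tested genes. The median with TMM was -0.10, against 0.01 for all.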

How the data were processed

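Libraries were made with a TruSeq kit, per the labels' protocols. Bowtie and the hg19 build are named by the submitters' processing notes, with no version of the aligner. Annotation, counting rule and strand use were not given in the sources used here, so reads of near-identical, overlapping or antisense genes may be divided between them. The authors deposited, per Ensembl gene and library, whole-number read counts and cRPKM, an RPKM that the values show to be the count divided by an effective length and the library total. Of 19847 genes, 354 had no value.

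Symbols were joined by Ensembl identifier, and 701 identifiers had none. The test was that of edgeR 4.0.16 under R 4.3.3 (TMM factors, quasi-likelihood F test, 1 fit of 3 group means to all 6 libraries, 3 residual degrees of freedom), two-sided, over 11926 genes with at least 1 cRPKM in at least 2 libraries. Genes were called at a Benjamini-Hochberg adjusted p under 0.05 over all tested genes, and standard errors came from the fold change and its F statistic. The test was also run on simulated counts, with a small share of genes changed in either direction at 1 common spread. That simulation held no shift of all genes, so it does not bear on the choice of scaling. The common biological coefficient of variation was 4.62%. Between replicates, chi-square per degree of freedom was 5.61 to 24.3, above sampling noise. The members, roles and lists were chosen with earlier results of these data known. By rule, the text names the 5 called members with the largest rise and fall in each comparison, the largest change in each role, and 12 fixed genes, and for other pathway genes the 3 largest rises and falls in the first 2 comparisons. Values of every library are printed for the larger changes among them, and some genes that the rule picked are not reported here. Further genes were named for their role or because a call depended on scaling or on 1 library. Alternatives were library totals, RLE factors, other filters, DESeq2 1.42.0, limma 3.58.1 on log2(cRPKM + pseudocount), a replicate block and leaving out each library.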

Additional observations from a re-analysis of the deposited data

How the results depend on the processing

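Library totals and limma on the deposited cRPKM, which keeps that scaling and also changes the test, moved the same number of single-gene results. For core spliceosome genes, library totals and limma 3.58.1 on log2(cRPKM + 1) or log2(cRPKM + 0.1) as deposited each gave 29 higher and 18 lower for UVC against control, 16 and 27 for active photolyase against UVC, and 9 lower for active photolyase against control, in place of 12 and 34, 32 and 12, and 24. For the other spliceosome genes, counts higher after UVC were 31 with library totals and 33 with limma (15 with TMM), counts lower with active photolyase against UVC were 31 with each (16), and against control 25 were higher and 21 lower with library totals and 24 and 19 with limma (13 and 35). With no filter on low values 8 of these were higher in the last comparison. DESeq2 and RLE factors kept every count of the core genes within 1.5 times its main value. Single calls were lost with DESeq2: LSM5 (0.14) and SNRPE (0.20) after UVC, and LSM3 (-0.18) with active photolyase against UVC. Against control, LSM5 (-0.16) and LSM7 (0.18) lost theirs with DESeq2, and LSM7 (0.18) also with RLE factors.

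With library totals the sign differed from that with TMM in 16, 17 and 12 of the 56 core genes in the 3 comparisons. Those named by rule and reported here follow, with values for library totals and for limma at pseudocounts of 1 and 0.1. For UVC against control they were EFTUD2 (0.22, 0.22 and 0.22), PRPF19 (0.36, 0.35 and 0.36), PRPF8 (0.23, 0.22 and 0.23) and SNRPA (0.074, 0.0699 and 0.072). For active photolyase against UVC they were LSM6 (-0.12, -0.095 and -0.11), SF3B1 (-0.12, -0.11 and -0.12), SNRPA (-0.0302, -0.029 and -0.029) and SNRPE (-0.19, -0.18 and -0.19). For active photolyase against control they were LSM2 (0.075, 0.068 and 0.075), PRPF38B (0.027, 0.027 and 0.0295), SNRPA (0.044, 0.041 and 0.043), SNRPB (0.022, 0.0203 and 0.0204), SNRPB2 (0.087, 0.085 and 0.086) and U2AF2 (0.025, 0.024 and 0.025). With a 5 cRPKM filter PRPF19 after UVC was 0.059. That filter also removed the calls of EFTUD2 (-0.073) and PRPF8 (-0.069) after UVC, and SNRNP200 was called higher (0.17). For active photolyase against UVC, SF3B1 lost its call (0.093), and EFTUD2 (-0.17) and PRPF19 (-0.16) were called lower. PRPF19 lost its call against control (-0.10). With no filter SNRNP200 after UVC was -0.0397 and PRPF8 with active photolyase against UVC was 0.028. That setting also removed the calls of LSM5 (0.053) and SNRPE (0.12) after UVC, LSM3 (-0.14) against UVC and LSM7 (0.13) against control. PRPF19 was then called lower after UVC (-0.15), and SNRPB (-0.14) and U2AF2 (-0.13) with active photolyase against control. The cause was not tested, beyond the shift of all values that a scaling makes.

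With 1 library left out at a time, and its lone partner taken to vary like the other groups, the core genes gave 9 to 13 higher and 32 to 33 lower after UVC, 27 to 31 higher and 10 to 12 lower with active photolyase against UVC, and 8 to 11 higher and 13 to 24 lower against control, where 8 to 14 of the other genes were higher. The sign turned in 2, 5 and 2 of the 56 core genes in the 3 comparisons, none of them called with all libraries. Those picked by the naming rule were SNRNP200 after UVC (-0.0066 to 0.11), PRPF8 with active photolyase against UVC (-0.091 to 0.0203), and LSM2 (-0.11 to 0.038) and PRPF38B (-0.21 to 0.048) against control.

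The replicate numbers gave no pairing: deviations of same-numbered libraries correlated at -0.05 to 0.12. Fitting the number as a replicate block left the counts for core genes unchanged (12 and 34, 32 and 12, 11 and 24), and for other genes 17 in place of 16 and 33 in place of 35 were lower in the last 2 comparisons. Depth limits the precision of U2AF1L4 (129 to 219 reads, SE 0.14 for UVC against control) and LSM6 (163 to 278 reads, SE 0.14). PRPF40B had 171 and 236 reads in control (SE 0.12 for UVC against control). Over the left-out libraries its estimate ran from 1.54 to 2.02 after UVC and from 0.63 to 1.11 for active photolyase against control.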
